A study of Homo sapiens with 12 samples.

Results

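The 10 genes described here encode the core of the AP-1 transcription factor and other fast-responding regulators. They are the FOS family (FOS, FOSB, FOSL1 and FOSL2), the JUN family (JUN, JUNB and JUND), the zinc finger factor EGR1, the transcription factor MYC and the survival gene IER3. They were chosen by name, and all 10 were listed in both expression tables, out of 58735 genes listed for 786-O and 29890 for 5637. The samples are 12 RNA-seq libraries of human cancer cell lines grown in RPMI-1640 with serum: 3 shCBX7 and 3 sh control libraries of 786-O, a renal carcinoma line, and 3 shCBX7 and 3 sh control libraries of 5637, a bladder carcinoma line. CBX7, the silenced gene, belongs to the chromobox proteins that read methylated histone H3 for Polycomb repressive complex 1, and the arms ask what its silencing changes in each line. The labels give a control short hairpin for the control cells but no sequence or number of hairpins, no time after silencing and no separate cultures, so each p-value reflects the scatter among libraries alone, which may be technical. Both tables name the silenced arm si in place of sh, and the table of 5637 its control arm too.

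AP-1 is a dimer of basic leucine zipper proteins that binds short palindromic DNA sites. FOS proteins must pair with a JUN protein to bind, while JUN proteins can also pair with each other. FOS, FOSB, JUNB, EGR1 and IER3 are textbook immediate early genes, switched on within minutes of a growth factor or stress signal by transcription factors already present in the cell, whereas FOSL1 (FRA1) and FOSL2 (FRA2) accumulate later under sustained ERK signalling. In epithelial cancer cells FOSL1 is known for its part in invasion and MYC for growth and ribosome production.

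In 786-O the members moved in opposite directions after silencing. EGR1 fell to 9.62% of its control level and FOS and FOSL2 fell too, while IER3 doubled and JUNB, JUN, MYC and FOSL1 rose. In 5637 FOSL1, MYC and EGR1 rose and JUNB and FOSL2 fell, the largest of these changes being that of FOSL1, to 1.38 times its control level.

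Levels are in FPKM as the authors deposited them, that is, fragments relative to gene length and to the size of the library. They are levels per length and can be compared between genes of one line, but the tables of the lines were made separately, so levels set across lines are given side by side with no test. Reads recovered from the steps of the FPKM values numbered 16384151 to 18868874 per 786-O library and 17744835 to 29198095 per 5637 library. These sums cover genes at which the reads came out whole, so those of 5637 leave some genes out. CBX7 itself was at 61.0% of the control mean in 786-O (limma log2 change -0.40, adjusted p = 0.00364) and at 83.3% in 5637 (limma log2 change -0.18, adjusted p = 0.0188). That 5637 call did not survive leaving out shCBX7 library 2 (limma adjusted p = 0.0608) or control library 3 (limma adjusted p = 0.0586). Of 4 basal urothelial markers, 4 reached 1 FPKM in 5637 and 0 in 786-O, and their sum in 5637 was 630.4 to 634 FPKM in shCBX7 and 447 to 448 FPKM in control libraries. Of 5 luminal urothelial markers, 4 reached 1 FPKM in 5637 and 3 in 786-O, where KRT19 averaged 210.1 FPKM in shCBX7 and 179 FPKM in control cells. Of 6 renal tubule and clear cell carcinoma markers, 4 reached 1 FPKM in shCBX7 and 5 in control 786-O cells, and 2 in either arm of 5637. PAX8, a renal lineage factor, averaged 30.3 FPKM in shCBX7 and 37.8 FPKM in control 786-O cells. CA9, of the same list, was listed lower in 786-O than in 5637, at 0.624 and 0.675 FPKM in 786-O and 1.96 and 2.70 FPKM in 5637 (shCBX7 and control). The leukocyte markers PTPRC and CD3E were at or near 0 in all 12 libraries, although the same list summed to 8.44 to 9.43 FPKM in shCBX7 and 16.5 to 20.6 FPKM in control 786-O cells, most of it LAPTM5. In 5637 that sum was 38.7 to 39.5 FPKM in shCBX7 and 44.0 to 46.0 FPKM in control cells, and the part of these marker levels in the results was not tested. In bulk RNA a lower level per cell and fewer cells that express a gene cannot be told apart.

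The change of each gene was tested with limma on log2(FPKM + 1), among all genes whose mean over the 6 libraries of a line reached 0.5 FPKM, and a gene was called under a Benjamini-Hochberg adjusted p of 0.05. FOSB in 786-O and IER3 in 5637 did not reach that mean, so 9 of the 10 members were tested in each line. In 786-O 8 of the 9 were called, 5 higher and 3 lower, where 51.0% of all 13220 tested genes were called (24.7% higher and 26.2% lower). In 5637 5 of the 9 were called, 3 higher and 2 lower, where 44.5% of all 12689 tested genes were called (24.4% higher and 20.2% lower), so that the share of members called in 5637 lay near the background. The arms did not overlap in 8 of 9 members in 786-O against 60.3% of all tested genes, and in 6 of 9 in 5637 against 56.4%.

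The stretches of DNA just before the start sites of 4 members are shown because these genes moved apart in 786-O: EGR1 and FOS fell there, and JUN and JUNB rose. Each is the 250 bases that precede the start site of RefSeq (GRCh38.p14, given 5′ to 3′ on the strand of the gene). The annotation of the 786-O table starts JUN and FOS farther upstream, so by that annotation the JUN window lies within the gene and the FOS window runs into it. Capitals mark matches to the CArG box, the site of the serum response factor SRF, or to the AP-1 and CRE type sites TGANTCA and TGACNTCA, searched on both strands. The stretches are chr5:138465229-138465478 (plus strand) for EGR1, chr14:75278578-75278827 (plus) for FOS, chr1:58784048-58784297 (minus) for JUN and chr19:12791236-12791485 (plus) for JUNB.
EGR1: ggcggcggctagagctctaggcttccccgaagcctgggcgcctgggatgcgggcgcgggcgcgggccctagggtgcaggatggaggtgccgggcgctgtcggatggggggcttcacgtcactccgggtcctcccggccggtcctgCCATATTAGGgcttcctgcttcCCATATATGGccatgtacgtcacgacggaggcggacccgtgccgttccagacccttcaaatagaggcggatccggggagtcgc
FOS: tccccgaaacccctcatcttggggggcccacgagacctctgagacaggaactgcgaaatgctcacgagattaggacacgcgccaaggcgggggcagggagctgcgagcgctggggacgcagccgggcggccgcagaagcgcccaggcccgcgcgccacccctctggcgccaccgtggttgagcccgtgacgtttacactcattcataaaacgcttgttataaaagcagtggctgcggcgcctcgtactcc
JUN: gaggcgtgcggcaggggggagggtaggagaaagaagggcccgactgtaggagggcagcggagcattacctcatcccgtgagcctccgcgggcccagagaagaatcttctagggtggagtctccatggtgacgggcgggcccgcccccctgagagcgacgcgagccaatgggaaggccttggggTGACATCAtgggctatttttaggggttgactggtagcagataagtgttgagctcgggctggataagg
JUNB: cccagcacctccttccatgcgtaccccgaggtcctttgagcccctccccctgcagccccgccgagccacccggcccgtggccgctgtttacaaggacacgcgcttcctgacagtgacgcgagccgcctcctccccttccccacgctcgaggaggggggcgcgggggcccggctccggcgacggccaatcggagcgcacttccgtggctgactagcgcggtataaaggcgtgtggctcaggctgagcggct

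EGR1 held 2 CArG boxes, from base -105 to -96 and from -83 to -74 before the start site. A CArG box was found in 1.16% of 35114 such windows in the RefSeq table and more than 1 of them in 0.0313%. JUN held 1 match to TGACNTCA, a motif found in 6.87% of windows, and JUND, not printed, held another. No match to TGANTCA, found in 6.57% of windows, was present in any of the 7 members searched. The windows of FOS and JUNB held none of the 3 motifs, which says only that these letters are not in this stretch. GCGNGGGCG and GGGCGG were also searched and are not marked in capitals. GCGNGGGCG, found in 8.41% of windows, was present in EGR1 from base -198 to -190. GGGCGG, found in 42.6% of windows, was present in FOS, FOSB, FOSL2, JUN and JUND. RefSeq windows were at hand for 7 members and the window of MYC was not read, so FOSL1, MYC and IER3 are named only.

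**Figure D1:**
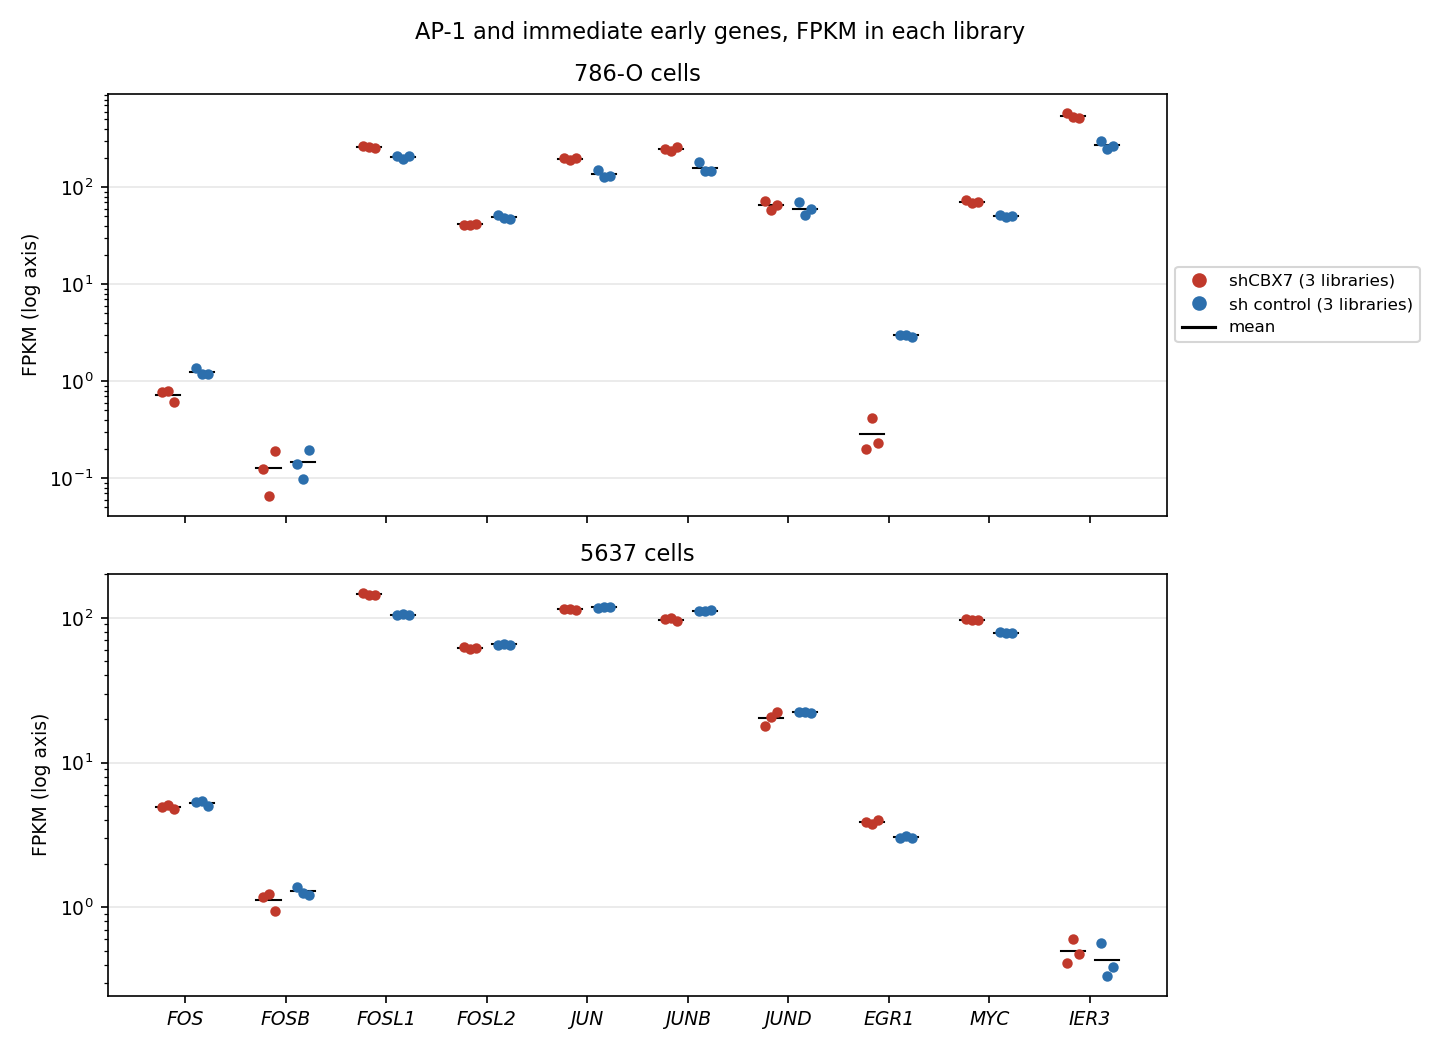
FPKM of the 10 members in each library on a log axis, 786-O above and 5637 below, with shCBX7 libraries in red to the left of sh control libraries in blue and a black line at each mean. EGR1 in 786-O lies at 0.202 to 0.421 FPKM in shCBX7 and 2.86 to 3.02 FPKM in control libraries, while the arms of most other members lie close together.

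EGR1, a zinc finger factor induced by serum and growth factors, had the largest change of any member. The 786-O libraries held 0.202, 0.421 and 0.232 FPKM with shCBX7, against 3.02, 3.01 and 2.86 FPKM with the control hairpin. Every shCBX7 library lay far below every control library, and the shCBX7 mean was 9.62% of the control mean. The log2 change by limma was -1.63 (SE 0.086; adjusted p = 8.55e-06 over all tested genes), which ranked it 34 among 13220 tested genes by the size of the fall. The levels rest on 12 to 22 reads per shCBX7 library and 148 to 173 per control library, and the log2(FPKM + 1) scale understates such a change. With a pseudocount of 0.1 the limma log2 change was -3.03 (adjusted p = 3.33e-05), and with voom on recovered reads it was -3.42 (adjusted p = 3.39e-09).

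In 5637 EGR1 moved the other way. The shCBX7 libraries held 3.87, 3.74 and 4.0 FPKM, against 3.0, 3.11 and 3.02 FPKM in the controls. The arms did not overlap, and the limma log2 change was 0.27 (SE 0.033 and adjusted p = 9.35e-04). Side by side, the control means were 2.96 ± 0.09 FPKM in 786-O and 3.04 ± 0.06 FPKM in 5637 (SD, n = 3 each). The difference between the changes was tested by limma's line-by-silencing term across the 12 libraries, in which 53.3% of 12777 genes were called. Genes entered that test at a mean of at least 0.5 FPKM over the 12 libraries. IER3 reached that mean only through 786-O, and FOSB only through 5637. Of the 10 members 8 passed, IER3 among them. For EGR1 the difference was -1.89 (786-O minus 5637, SE 0.081, adjusted p = 1.00e-08), and it ran from -1.97 to -1.85 as each library was left out. It was -3.37 with a pseudocount of 0.1 (limma adjusted p = 3.95e-07) and -3.78 with voom on recovered reads (limma adjusted p = 3.47e-10).

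FOS, the prototype of the family and a partner of JUN, fell in 786-O. Its levels there were 0.782, 0.797 and 0.606 FPKM in shCBX7 libraries and 1.37, 1.18 and 1.20 FPKM in control libraries, without overlap. These values rest on 35 to 48 reads in shCBX7 and 64 to 74 in control libraries. The limma log2 change was -0.38 (SE 0.083 and adjusted p = 0.00671) on the log2(FPKM + 1) scale and -0.77 with voom on recovered reads (adjusted p = 0.00495). In 5637 FOS was at 4.95, 5.06 and 4.79 FPKM in shCBX7 libraries and 5.33, 5.40 and 4.98 FPKM in control libraries. The arms overlapped and the change of -0.07 did not pass (limma adjusted p = 0.152). The change in 786-O was lower than that in 5637 on the log2(FPKM + 1) scale (786-O minus 5637, -0.31, SE 0.075, limma adjusted p = 0.00459). That difference was -0.63 with a pseudocount of 0.1 (limma adjusted p = 0.00214) and -0.70 with voom on recovered reads (limma adjusted p = 0.00466).

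FOSB, the FOS relative with a truncated splice form in brain, was near the floor in 786-O. It was at 0.123, 0.0648 and 0.192 FPKM (6 to 19 reads) in shCBX7 libraries and 0.140, 0.0982 and 0.196 FPKM (10 to 18 reads) in control libraries, so a change was not detectable at this depth. In 5637 it was at 1.17, 1.24 and 0.946 FPKM in shCBX7 libraries and 1.38, 1.25 and 1.22 FPKM in control libraries, which overlapped (limma log2 change -0.11, adjusted p = 0.208). FOSB shares part of its interval with ERCC1 on the opposite strand, which averaged 15.1 FPKM in shCBX7 and 13.7 FPKM in control 786-O cells. The kit was directional, but whether reads were counted by strand is not given in the sources used here, so reads of the shared part may have gone to either gene.

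FOSL1, which encodes FRA1, was the most abundant FOS family member in both lines and rose in both. In 786-O it was at 267, 258 and 256 FPKM in shCBX7 libraries and 210, 198 and 208 FPKM in control libraries. In 5637 it was at 149, 143 and 143 FPKM in shCBX7 libraries and 105, 106 and 104 FPKM in control libraries. The arms were apart in each line, and limma gave a log2 change of 0.34 for 786-O (SE 0.044; adjusted p = 5.24e-04) and 0.46 for 5637 (SE 0.023; adjusted p = 3.63e-05). The difference between lines was small (786-O minus 5637, -0.12, limma adjusted p = 0.0413). It lost its call with median centring (-0.09, limma adjusted p = 0.146), with quantile normalization (-0.08, limma adjusted p = 0.163), with 2 other settings and when any of 10 of the 12 libraries was left out.

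FOSL2, which encodes FRA2, fell in both lines. In 786-O it was at 41.0, 40.7 and 42.1 FPKM in shCBX7 libraries and 51.2, 48.2 and 47.2 FPKM in control libraries, lower by limma with a log2 change of -0.24 (SE 0.046; adjusted p = 0.00407). In 5637 it was at 62.7, 61.2 and 61.7 FPKM in shCBX7 libraries and 65.1, 66.4 and 65.3 FPKM in control libraries, lower with a log2 change of -0.08 (SE 0.019; limma adjusted p = 0.0104). The arms did not overlap in either line, and in 5637 the mean stayed at 94.3% of the control mean. By the size of the fall FOSL2 ranked 3368 among 13220 tested genes in 786-O and 3513 among 12689 in 5637. The median absolute change over all tested genes was 0.238 in 786-O and 0.104 in 5637. The larger fall in 786-O passed the test of the difference (-0.15, limma adjusted p = 0.0152) but not with median centring (-0.12, limma adjusted p = 0.0578).

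Summed over its 4 members, the FOS family came to 299 to 309 FPKM in shCBX7 and 247 to 263 FPKM in control libraries of 786-O, and to 210 to 218 FPKM in shCBX7 and 175 to 179 FPKM in control libraries of 5637. FOSL1 made up 85.6% to 86.4% of that sum in shCBX7 and 79.9% to 81.0% in control libraries of 786-O. In 5637 its share was 68.0% to 68.4% in shCBX7 and 59.3% in each control library. FOSL2 took 13.3% to 14.1% in shCBX7 and 18.4% to 19.5% in control libraries of 786-O, and 28.8% to 29.3% in shCBX7 and 36.9% to 37.2% in control libraries of 5637. FOS and FOSB together were the small remainder in both lines, so that the classical FOS was at most 0.521% of the sum in any 786-O library. These shares describe the levels already tested and carry no test of their own.

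**Figure D2:**
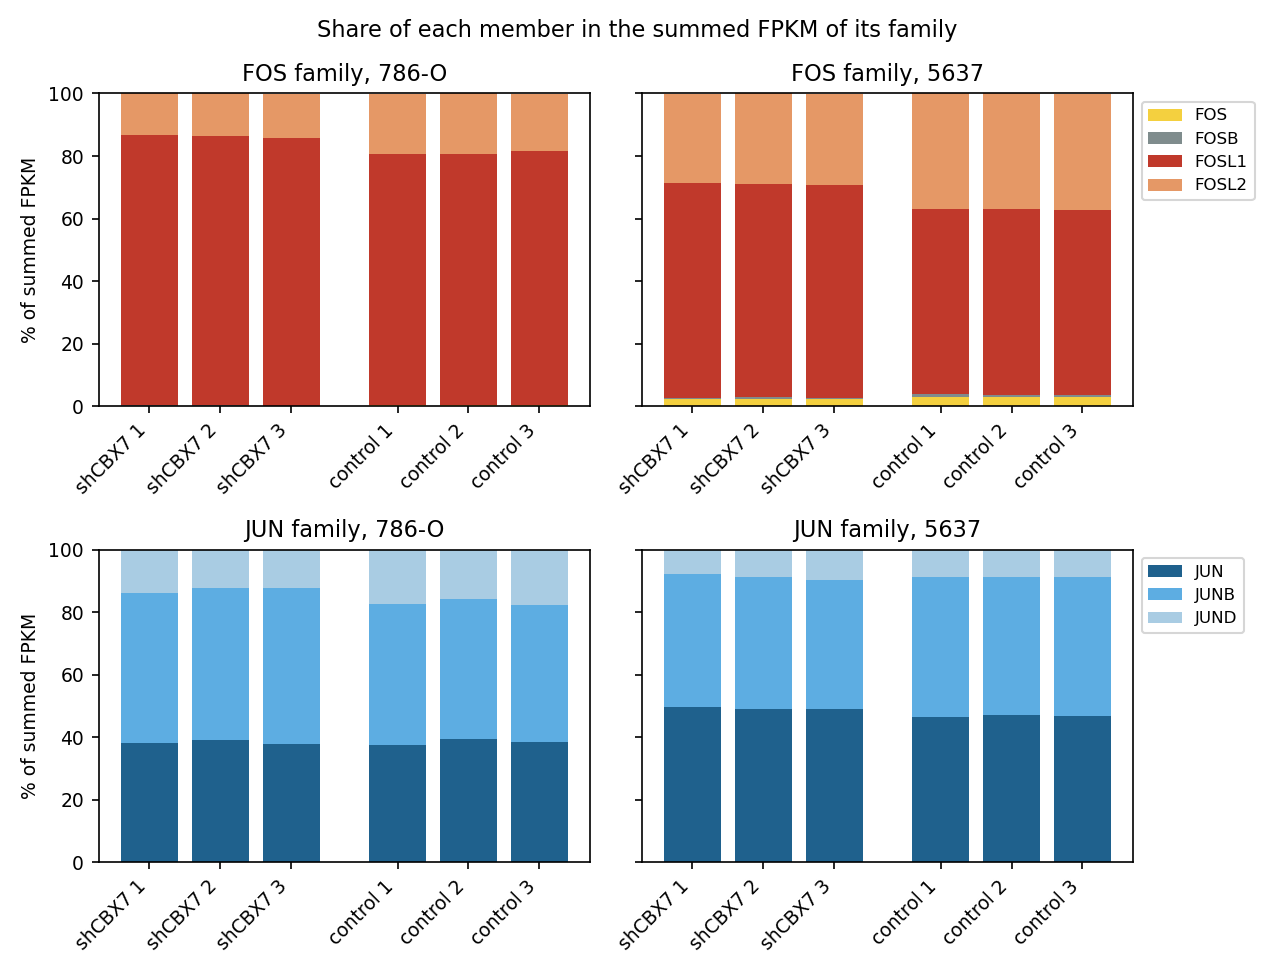
Share of each member in the summed FPKM of its family, in percent, 1 bar per library with the 3 shCBX7 libraries to the left of the 3 control libraries, FOS family above and JUN family below, 786-O left and 5637 right. FOSL1 takes the larger part of every FOS family bar, at 85.6% to 86.4% in shCBX7 and 79.9% to 81.0% in control libraries of 786-O.

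JUN, the founding AP-1 subunit and a target of JNK, rose in 786-O. Its levels there were 201, 189 and 199 FPKM in shCBX7 libraries and 151, 128 and 130 FPKM in control libraries. The arms were apart, and control library 1 was the highest of its arm. The limma log2 change was 0.52 (SE 0.070 and adjusted p = 6.49e-04), and 0.60 without control library 1 (limma adjusted p = 9.73e-05). In 5637 JUN was at 114, 116 and 114 FPKM in shCBX7 libraries and 116.9, 120 and 119 FPKM in control libraries. The arms did not overlap, but the change of -0.05 did not pass (SE 0.019, limma adjusted p = 0.0775), although it did with median centring (-0.06, limma adjusted p = 0.0328). The changes differed between lines by 0.57 (786-O minus 5637, SE 0.076, limma adjusted p = 6.63e-05).

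JUNB, a JUN family member with weaker transactivation than JUN, rose in 786-O and fell in 5637. In 786-O it was at 251, 236 and 260 FPKM in shCBX7 libraries and 183, 145 and 148 FPKM in control libraries, higher with a log2 change of 0.65 (SE 0.092; limma adjusted p = 8.38e-04). In 5637 it was at 97.7, 99.2 and 95.3 FPKM in shCBX7 libraries and 112, 112 and 114 FPKM in control libraries, lower with a log2 change of -0.20 (SE 0.021; limma adjusted p = 4.45e-04). In both lines every shCBX7 library lay on one side of every control library. The difference between lines was 0.86 (786-O minus 5637, SE 0.102, limma adjusted p = 2.91e-05), and 0.96 without control library 1 of 786-O. JUNB overlaps HOOK2 on the opposite strand, which averaged 3.21 FPKM in shCBX7 and 2.63 FPKM in control 786-O cells, and the same limit holds for reads of the shared part.

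JUND, the JUN member that quiescent cells express steadily, did not pass in either line. In 786-O it was at 72.8, 58.9 and 65 FPKM in shCBX7 libraries and 69.9, 51.6 and 59.3 FPKM in control libraries (limma log2 change 0.13, SE 0.118, adjusted p = 0.404). In 5637 it was at 18.0, 20.5 and 22.2 FPKM in shCBX7 libraries and 22.5, 22.2 and 22.0 FPKM in control libraries (limma log2 change -0.13, SE 0.066, adjusted p = 0.143). The arms overlapped in both lines, and in 5637 the shCBX7 libraries spread more widely than the controls. Without the shCBX7 library numbered 3 the 5637 change was -0.20 and passed (limma adjusted p = 0.0272), and without library 1 of that arm it was -0.055 (limma adjusted p = 0.272). In 786-O the change ran from 0.022 without control library 2 to 0.24 without control library 1, and passed in neither case. The difference between lines did not pass (0.26, limma adjusted p = 0.169), but it did with the replicate block (limma adjusted p = 0.0343) and without control library 1 of 786-O (0.37, limma adjusted p = 0.0323).

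Summed over its 3 members, the JUN family came to 483 to 524 FPKM in shCBX7 and 325 to 404 FPKM in control libraries of 786-O. In 5637 the sum was 230 to 235 FPKM in shCBX7 and 251 to 254 FPKM in control libraries. JUNB made up 47.8% to 49.6% of it in shCBX7 and 43.9% to 45.3% in control libraries of 786-O, and 41.2% to 42.5% in shCBX7 and 44.1% to 44.7% in control libraries of 5637. JUND took 12.2% to 13.9% in shCBX7 and 15.9% to 17.6% in control libraries of 786-O.

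MYC, a basic helix-loop-helix leucine zipper factor that drives growth, rose in both lines. In 786-O it was at 73.5, 69.1 and 70.5 FPKM in shCBX7 libraries and 52.2, 49.0 and 50.7 FPKM in control libraries. In 5637 it was at 97.5, 96.9 and 96.0 FPKM in shCBX7 libraries and 79.9, 78.4 and 78.9 FPKM in control libraries. The arms were apart by more than the spread within them in each line. The limma log2 change was 0.48 in 786-O (SE 0.046 and adjusted p = 1.21e-04) and 0.29 in 5637 (SE 0.018 and adjusted p = 7.80e-05), and the rise was larger in 786-O by 0.19 (SE 0.045, limma adjusted p = 0.00386). Over all genes tested between lines the median absolute difference was 0.236.

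IER3, an immediate early gene that modulates apoptosis and is induced by NF-kB, was the most abundant member in 786-O. It was at 587, 525 and 512 FPKM in shCBX7 libraries and 299, 248 and 263 FPKM in control libraries. The lowest shCBX7 library was well above the highest control library, and the shCBX7 mean was 2.0 times the control mean. The limma log2 change was 1.0 (SE 0.082 and adjusted p = 5.91e-05), the rank of 277 among 13220 tested genes by the size of the rise.

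The table of 5637 listed IER3 at 0.410, 0.603 and 0.476 FPKM in shCBX7 libraries and 0.569, 0.332 and 0.387 FPKM in control libraries, which is 11 to 24 reads per library in either arm. Its neighbours on chromosome 6, in the major histocompatibility region, were listed as low. Of the 20 nearest protein-coding genes on either side with a mean of at least 5 FPKM in 786-O, 17 were under 0.5 FPKM in 5637. TUBB, a beta-tubulin, averaged 783 FPKM in 786-O and 0.343 FPKM in 5637, and HLA-C, a class I antigen-presenting molecule, 1066 and 3.80 FPKM. Around the other 9 members such neighbours numbered 0 of 20 for each member except FOSL1, with 1 of 20, and over the genome they were 269 of 5924 genes (4.54%). The level of IER3 in 5637 is therefore given as listed, and its difference between lines (0.94, 786-O minus 5637, limma adjusted p = 4.37e-05) is not read as one between the cells. With voom on recovered reads that difference did not pass (0.73, limma adjusted p = 0.212).

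**Figure D3:**
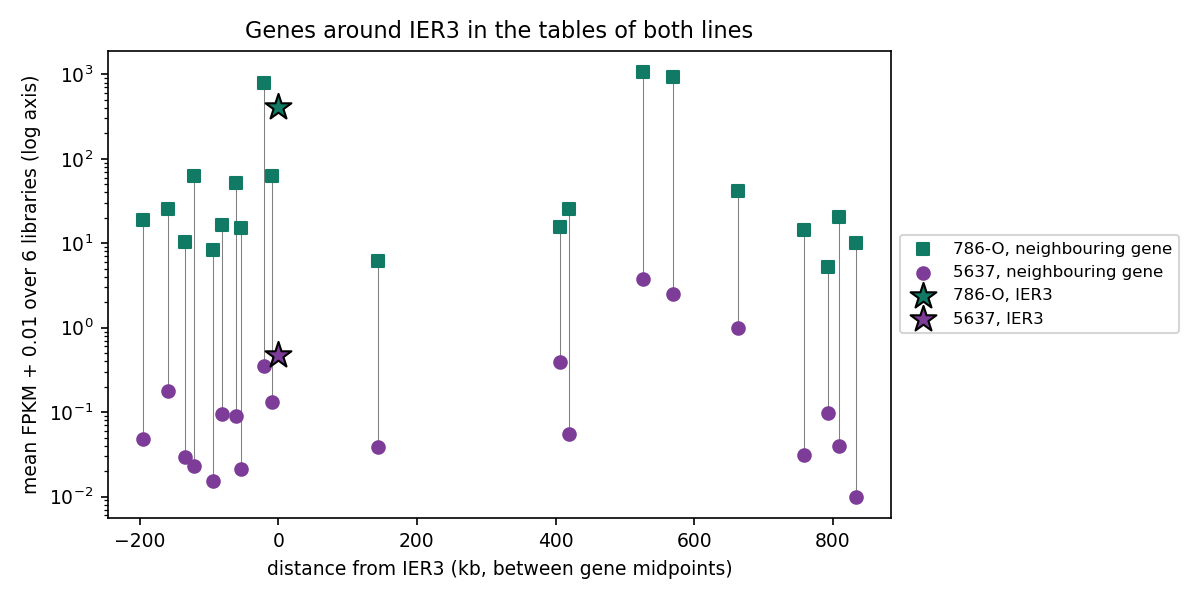
Mean FPKM plus 0.01 over 6 libraries, on a log axis, of 20 protein-coding genes around IER3, against the distance from IER3 in kb. They are the nearest genes with at least 5 FPKM in 786-O, in equal number on each side. The 786-O values are green squares, the 5637 values purple circles and those of IER3 stars. In 5637 17 of the 20 lie under 0.5 FPKM, beside IER3 itself.

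**Figure D4:**
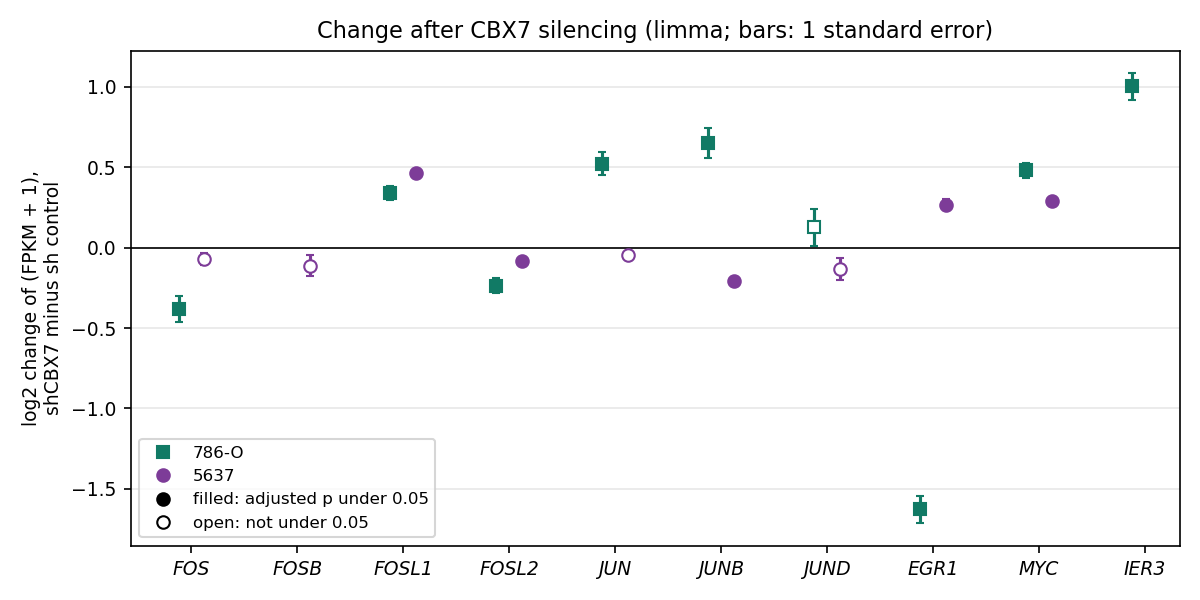
limma log2 change of (FPKM + 1), shCBX7 minus sh control, with bars of 1 SE for the 9 members tested in each line, 786-O as green squares and 5637 as purple circles, filled where the adjusted p was under 0.05. EGR1 lies at -1.63 in 786-O and 0.27 in 5637, and JUNB at 0.65 and -0.20.

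In the order of mean levels, control 786-O cells held IER3, FOSL1, JUNB, JUN, JUND, MYC and FOSL2, followed at a distance by EGR1, FOS and FOSB. The ranges of JUNB and JUN overlapped there, and so did those of JUND and MYC and of MYC and FOSL2. In shCBX7 786-O cells EGR1 stood below FOS and MYC above JUND, and the ranges of FOSL1 and JUNB and of MYC and JUND overlapped. In control 5637 cells the order was JUN, JUNB, FOSL1, MYC, FOSL2, JUND, FOS, EGR1, FOSB and IER3, with no overlap between neighbours. After silencing FOSL1 stood first in 5637, and the ranges of JUNB and MYC overlapped.

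Other immediate early genes were described from a list of 41 that held none of the members. In 786-O 29 of 36 tested genes rose and 3 fell (80.6% and 8.33%, against 24.7% and 26.2% of all genes). The median log2 change of the list was 0.54, where the median over all tested genes was -0.01. HBEGF, a ligand of the EGF receptor, averaged 32.4 ± 1.1 FPKM in shCBX7 and 9.69 ± 1.25 FPKM in control cells (SD, n = 3 each), and TNFAIP3, a brake on NF-kB, 31.5 ± 0.8 FPKM in shCBX7 and 13.2 ± 0.6 FPKM in control cells (SD, n = 3 each). EGR2, a relative of EGR1, rose in the line in which EGR1 fell, at 2.66 FPKM in shCBX7 and 1.47 FPKM in control cells (limma log2 change 0.57, adjusted p = 0.00108), and it was named after its values were seen. The genes that fell were ZFP36L2, PLK2 and NFKBIZ, the first of them to 5.77 ± 0.79 FPKM in shCBX7 against 10.5 ± 0.8 FPKM in control cells (SD, n = 3 each).

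In 5637 the same list leaned the other way, with 8 of 35 tested genes higher and 16 lower (22.9% and 45.7%, against 24.4% and 20.2% of all genes). The genes tested differ from those in 786-O, as CCN1 and CCN2 were not analysed in 5637 and EGR2 did not average 0.5 FPKM there. The median log2 change of the list was -0.09, against 0.01 over all tested genes. HBEGF rose there too (24.4 ± 0.3 FPKM in shCBX7 and 17.4 ± 0.3 FPKM in control cells), as did the MAP kinase phosphatase DUSP1 (32.1 ± 1.4 and 24.3 ± 1.3 FPKM in the same order; SD, n = 3 each). GADD45B, a stress-induced signalling protein, fell to 23.8 ± 0.8 FPKM in shCBX7 against 31.6 ± 1.8 FPKM in control cells (SD, n = 3 each), and IER5L to 20.8 ± 0.6 against 25.9 ± 0.5 FPKM. In the test of the difference, 29 of 36 genes of the list changed more upward in 786-O than in 5637 and 2 more downward. Of all genes 24.3% and 29.0% did so, in the same order. EGR2, among the 29, reached the mean for this test only through its level in 786-O. The difference for GADD45B was 1.04 (786-O minus 5637, limma adjusted p = 3.58e-07), while that for DUSP1 did not pass (0.14, limma adjusted p = 0.119).

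Proteins of the bZIP class that can pair with FOS or JUN, or share their sites, numbered 16. In 786-O 8 of 13 tested rose and 0 fell (61.5% and 0%, against 24.7% and 26.2% of all genes), with a median log2 change of 0.38. The stress factor ATF3, also on the list of immediate early genes, averaged 8.20 ± 0.42 FPKM in shCBX7 and 3.40 ± 0.23 FPKM in control cells, and the interferon-inducible BATF2 2.01 ± 0.42 and 0.490 ± 0.025 FPKM (shCBX7 and control; SD, n = 3 each). In 5637 3 of 12 tested rose and 4 fell. The share that rose, 25.0%, was near the 24.4% of all genes, and 33.3% fell, against 20.2% of all genes. NFE2L1, a regulator of proteasome genes, averaged 63.7 ± 1.0 FPKM in shCBX7 and 50.1 ± 0.6 FPKM in control cells, and the small MAF protein MAFG 33.5 ± 0.3 and 40.6 ± 0.3 FPKM (shCBX7 and control; SD, n = 3 each).

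Among 30 textbook AP-1 target genes, 17 of 22 tested rose and 2 fell in 786-O (77.3% and 9.09%, against 24.7% and 26.2% of all genes). The median log2 change of the list was 0.63. The architectural protein HMGA1 averaged 306 ± 15 FPKM in shCBX7 and 110 ± 9 FPKM in control cells, and the protease PLAU, urokinase, 89.3 ± 2.15 FPKM in shCBX7 and 33.1 ± 1.5 FPKM in control cells (SD, n = 3 each). CCND1, cyclin D1, and EZR, ezrin, were the 2 that fell, CCND1 to 153 ± 7 FPKM in shCBX7 against 215 ± 4 FPKM in control cells (SD, n = 3 each). In 5637 12 of 23 tested rose and 6 fell (52.2% and 26.1%, against 24.4% and 20.2% of all genes), with a median log2 change of 0.10. IVL, a cornified envelope precursor, averaged 5.67 ± 0.29 FPKM in shCBX7 and 1.23 ± 0.11 FPKM in control cells, and the chemokine CXCL8 51.9 ± 5.0 FPKM in shCBX7 and 27.0 ± 0.2 FPKM in control cells (SD, n = 3 each). HMGA1 was among the 6 that fell in 5637, as were CD44, TIMP1, HMGA2, KRT16 and EZR.

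Of 31 genes upstream of the members (RAS, RAF, MAP kinases, their substrates and SRF cofactors), 6 of 30 tested rose and 11 fell in 786-O. These shares were 20% and 36.7%, against 24.7% and 26.2% of all genes in that line. NRAS, a small GTPase, averaged 9.30 ± 0.46 FPKM in shCBX7 and 22.5 ± 2.1 FPKM in control cells, and the ERK kinase MAP2K2 23.7 ± 1.0 and 47.7 ± 4.7 FPKM (shCBX7 and control; SD, n = 3 each). SRF, which binds the CArG box and is also on the list of immediate early genes, rose in both lines, to 34.1 ± 2.4 FPKM in shCBX7 against 22.4 ± 0.6 FPKM in control 786-O cells, and to 17.1 ± 0.6 FPKM in shCBX7 against 13.9 ± 0.5 FPKM in control 5637 cells (SD, n = 3 each). In 5637 8 of 29 tested rose and 7 fell, which is 27.6% and 24.1%, near the 24.4% and 20.2% of all genes. HRAS there averaged 17.8 ± 4.7 FPKM in shCBX7 and 4.34 ± 2.0 FPKM in control cells, and ELK4, a partner of SRF, 11.3 ± 0.2 and 14.7 ± 0.1 FPKM (shCBX7 and control; SD, n = 3 each).

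MYC rose in both lines, while among its target genes falls were the more frequent in 786-O and rises in 5637. In 786-O 3 of 31 tested rose and 23 fell (9.68% and 74.2%, against 24.7% and 26.2% of all genes), with a median log2 change of -0.30. The mitochondrial chaperone HSPD1 averaged 79.9 ± 4.5 FPKM in shCBX7 and 156 ± 9 FPKM in control cells, and the growth regulator PA2G4 29 ± 1.1 FPKM in shCBX7 and 51.1 ± 2.1 FPKM in control cells (SD, n = 3 each). ODC1, the rate-limiting enzyme of polyamine synthesis, NOLC1 and POLR1B were the 3 that rose, ODC1 with 59.6 ± 1.19 FPKM in shCBX7 and 38.7 ± 0.340 FPKM in control cells (SD, n = 3 each). In 5637 21 of 30 tested rose and 2 fell (70.0% and 6.67%, against 24.4% and 20.2% of all genes), with a median log2 change of 0.19, and ODC1 averaged 31.2 ± 0.7 FPKM in shCBX7 and 16.7 ± 0.6 FPKM in control cells (SD, n = 3 each). Of 30 targets tested between lines, 26 changed more downward in 786-O and 3 more upward. Of all genes 29.0% and 24.3% did so, in the same order. The difference was -1.17 for HSPD1 (limma adjusted p = 8.09e-08) and 0.44 for NOLC1 (limma adjusted p = 4.03e-05), both 786-O minus 5637.

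Of 14 MYC partners and relatives, 5 of 12 tested rose and 3 fell in 786-O (41.7% and 25.0%, against 24.7% and 26.2% of all genes). MAX, the obligate partner of MYC, averaged 20.1 ± 0.4 FPKM in shCBX7 and 10.6 ± 0.6 FPKM in control cells, and MLXIP, a nutrient-sensing relative, 1.08 ± 0.21 and 2.01 ± 0.24 FPKM (shCBX7 and control; SD, n = 3 each). In 5637 3 of 13 rose and 3 fell, which is 23.1% each, near the 24.4% and 20.2% of all genes. MXD1, a MAX partner that opposes MYC, fell there to 7.17 ± 0.07 FPKM in shCBX7 against 9.65 ± 0.13 FPKM in control cells, and MXD3, of the same kind, to 5.69 ± 0.07 against 7.22 ± 0.28 FPKM (SD, n = 3 each).

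Corepressors and textbook targets of EGR1 numbered 18. In 786-O, where EGR1 fell, 9 of 17 tested rose and 2 fell (52.9% and 11.8%, against 24.7% and 26.2% of all genes). The median log2 change of the list was 0.26. The CDK inhibitor CDKN1A averaged 139 ± 3 FPKM in shCBX7 and 46.2 ± 4.5 FPKM in control cells, and the adhesion molecule ICAM1 127 ± 4 FPKM in shCBX7 and 53.6 ± 1.4 FPKM in control cells (SD, n = 3 each). The 2 that fell were FGF2, to 4.73 ± 0.47 FPKM in shCBX7 against 7.48 ± 0.50 FPKM in control cells, and FN1. In 5637 7 of 18 tested rose and 7 fell (38.9% each, against 24.4% and 20.2% of all genes). PDGFB averaged 14.6 ± 0.1 FPKM in shCBX7 and 8.62 ± 0.32 FPKM in control cells, while its relative PDGFA averaged 30.5 ± 0.5 FPKM in shCBX7 and 40.6 ± 0.5 FPKM in control cells (SD, n = 3 each).

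**Figure D5:**
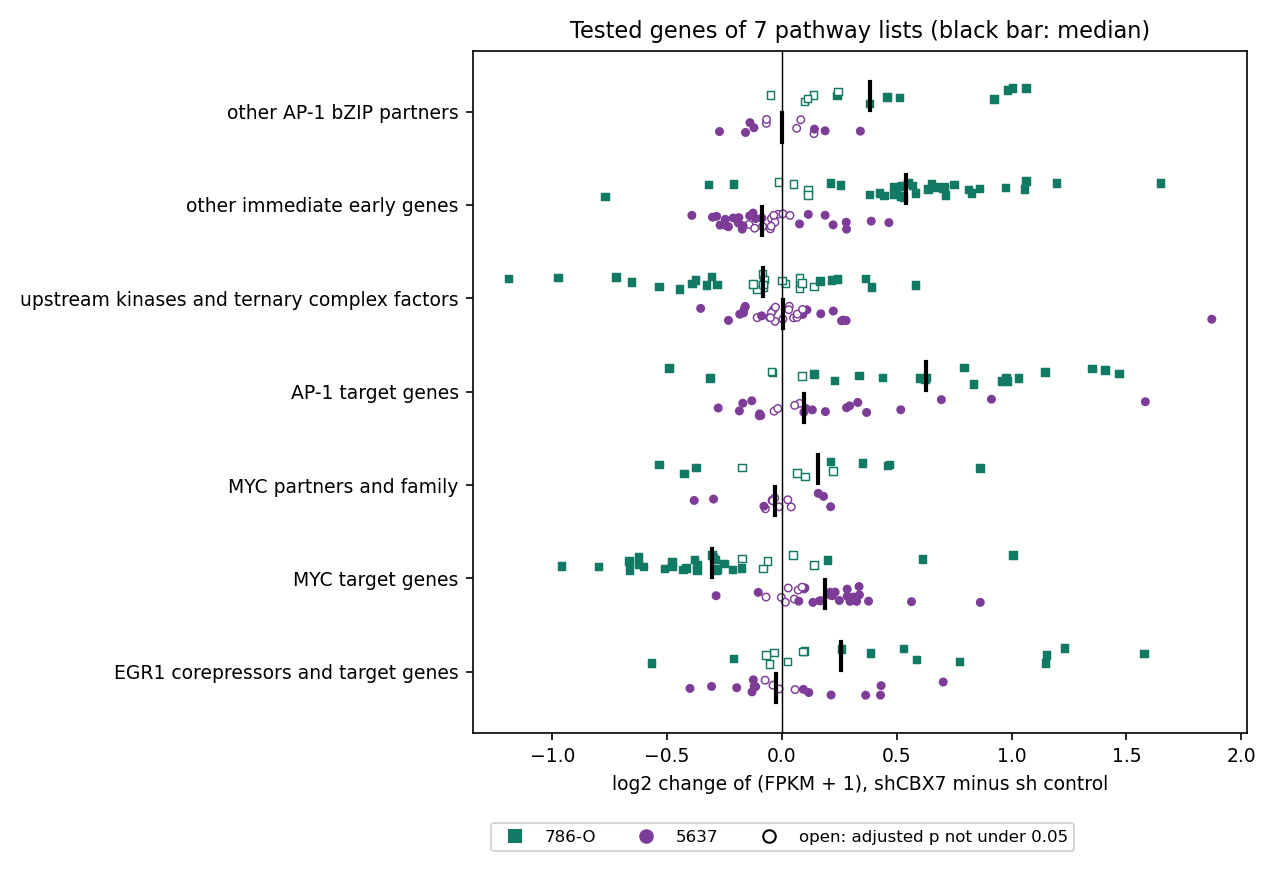
limma log2 change of (FPKM + 1), shCBX7 minus sh control, of every tested gene in 7 lists, 786-O as green squares above 5637 as purple circles in each row, filled where the adjusted p was under 0.05, with a black bar at the list median. The median of the other immediate early genes lies at 0.54 in 786-O and -0.09 in 5637, and that of the MYC target genes at -0.30 and 0.19.

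The genes most like a member were found by Pearson's r over the 12 libraries, centred within each line, among 9216 other genes that averaged 1 FPKM or more in each line. Such values follow mainly the change between arms, share their libraries and carry no test. JUN was closest to MANBAL (r = 0.997) and to the immediate early gene IER5 (r = 0.993). FOSL1 was closest to ACTN1 (r = 0.992) and DBN1 (r = 0.990), both actin-binding proteins, and MYC to WDR1 (r = 0.995), an actin-disassembly factor, and EHD1 (r = 0.994). EGR1 was closest to ACLY (r = 0.994), which makes cytosolic acetyl-CoA. FOSL2 was closest to REEP6 (r = 0.983), JUNB to EGFL7 (r = 0.987) and JUND to METTL26 (r = 0.954).

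By the annotation of the 786-O table (GRCh38), EGR1 lies on chromosome 5 from 138465490 to 138469315 and FOS on chromosome 14 from 75278774 to 75282230, both on the plus strand. FOSL1 lies on chromosome 11 from 65892049 to 65900573 and JUN on chromosome 1 from 58780788 to 58784327, both on the minus strand. JUNB (12791496 to 12793315, plus), JUND (18279760 to 18281622, minus) and FOSB (45467995 to 45475179, plus) lie on chromosome 19. FOSL2 lies on chromosome 2 from 28392448 to 28417312 (plus), IER3 on chromosome 6 from 30743199 to 30744554 (minus) and MYC on chromosome 8.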

How the data were processed

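The expression values are FPKM, which the authors deposited as 1 table per line, per the file headers. The kit was directional, per the labels' protocols; no aligner, counter or strand setting is given in the sources used here. The submitters' processing notes name mm10, a mouse build, for these human samples, yet every one of the 58735 genes in the 786-O table has its GENCODE release 29 (GRCh38) position. Reads were recovered from the FPKM steps (tolerance 0.01), and came out whole for 58735 genes of the 786-O table and, with that table's gene lengths, for 28077 of 29890 (93.9%) of the 5637 table. Of the 5637 controls, 2 titles carry another number, so these samples were grouped by cell line label and their columns by group. Columns left out as unmapped numbered 0.

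All genes of a table were fitted together with limma 3.58.1 in R 4.3.3, with a mean-variance trend, on log2(FPKM + 1), and the difference between lines over all 12 libraries. The fit was tested on simulated data with known answers. The members, the 7 lists and the tests were chosen with earlier results of these data known, so no list is independent support. By rule, a list could give its strongest 2 risers and strongest 2 fallers per line, if called and at a mean of 1 FPKM or more; not all are printed, and any other gene was named after its values were seen. CCN1, CCN2, MRTFA, MRTFB and PHB were not analysed in 5637. The alternatives tried were voom on the recovered reads, the replicate number as a block, each library left out, a fit without the trend, median centring, quantile normalization, a pseudocount of 0.1, and no filter on low values.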

Additional observations from a re-analysis of the deposited data

Results flagged for a closer look

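The changes of 8 members after silencing differed between the lines by limma's interaction term over 12 libraries, in which 53.3% of 12777 genes passed. As 786-O minus 5637 on the log2(FPKM + 1) scale, the difference was -1.89 for EGR1, 0.856 for JUNB, 0.57 for JUN, -0.31 for FOS, 0.192 for MYC, -0.154 for FOSL2 and -0.121 for FOSL1. This scale understates low genes: with a pseudocount of 0.1 the difference was -3.37 for EGR1 and -0.63 for FOS, and with voom on recovered reads it was -3.78 for EGR1, -0.70 for FOS and 0.57 for JUN. EGR1 and JUNB passed in each line with opposite signs, while JUN and FOS passed in 786-O and not in 5637. MYC, FOSL2 and FOSL1 changed in the same direction in both lines, so for them the difference is one of size. For each of them it was smaller than the median absolute difference over all genes tested, 0.236. The median absolute change over all tested genes was 0.238 in 786-O and 0.104 in 5637. IER3, counted among the 8, entered the test only through its level in 786-O. Its difference was 0.935, but the table of 5637 lists IER3 and 17 of its 20 neighbours under 0.5 FPKM. The part this plays was not tested.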

How the results depend on the processing

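The number of members called ran from 5 to 6 in 5637 and stayed at 8 in 786-O as each library was left out. In those fits 7 to 8 members, IER3 among them, differed between lines. With median centring 6 members differed. The counts of members called and of all genes called, in each line and between lines, stayed within 1.5 times under every alternative that was run (90 comparisons). Of the values of single genes, CBX7 included, 439 kept direction and side of the threshold, 25 lost their call, 4 gained one and 1 changed sign: the difference of FOSB between lines, not called, was -0.031 with voom on recovered reads and 0.087 on log2(FPKM + 1). Of the calls lost, 14 concern the difference of FOSL1 between lines. The replicate block changed no member's call within a line, raised the members that differed between lines to 9 through JUND, left 6723 of 13220 genes called in 786-O, against 6736 without it, and 4942 of 12689 in 5637, against 5651 without it. Deviations of same-numbered 786-O libraries correlated at 0.132, 0.102 and 0.0545, not over 0.1 in every pair, so the numbers were not taken as pairs, although every library there correlated best with its own number, a hint from the data and not from the design. FOSB in 786-O and IER3 in 5637 rest on 6 to 24 reads per library. Depth limits EGR1 and FOS in 786-O, whose size of change depends on the pseudocount while the call does not.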

Other observations

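Genes with a CArG box in the 250 bases before their start were looked at as a group, since EGR1 holds a pair of them. In 786-O 51 of 138 tested genes rose (37.0%) and 37 fell (26.8%), where 25.5% of all 9203 tested genes with such a window rose and 28.5% fell. In 5637 50 of 142 rose (35.2%) and 27 fell (19.0%), where 26.0% of 9751 rose and 19.9% fell. The RefSeq table holds 11 genes with more than 1 CArG box in the window, of which the tested ones in 786-O were EGR1, SRF, ING4, ZNF548, CUL4B and AGPAT1. SRF rose in both lines, with a log2 change of 0.58 in 786-O (limma adjusted p = 1.54e-04) and 0.28 in 5637 (limma adjusted p = 9.21e-04), and ING4 rose in 786-O (0.75, limma adjusted p = 4.53e-04) and fell in 5637 (-0.17, limma adjusted p = 0.00377). ZNF548 rose in 786-O (0.31, limma adjusted p = 0.0321) and CUL4B fell in 5637 (-0.12, limma adjusted p = 0.00914). EGR1 was the one member of that set that fell in 786-O by the test, and these genes were chosen after their values were seen.

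Genes with TGANTCA in the window rose in 191 of 568 cases in 786-O (33.6%) and fell in 145 (25.5%). Of all 9203 tested genes with a window 25.5% rose there and 28.5% fell. In 5637 171 of 614 rose (27.9%) and 125 fell (20.4%), near the 26.0% and 19.9% of all 9751 such genes. Genes with TGACNTCA, the motif found in JUN and JUND, lay nearer to all genes in 786-O, with 198 of 671 higher (29.5%) and 183 lower (27.3%). In 5637 188 of 718 were higher (26.2%) and 134 lower (18.7%), also near all genes.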
